A study of Mus musculus with 12 samples.

Results

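Whole blood taken 24 h after the last of 11 days of dosing with CPI-0209 was compared with whole blood taken 1 h after it, across all genes, as 3 libraries against 3. These 6 libraries are all those labelled with these collection times, of 12 in the series, and they were chosen by their labels alone. CPI-0209 is a small-molecule inhibitor of EZH2, the methyltransferase subunit of Polycomb repressive complex 2 (PRC2), which places a repressive methyl mark on histone H3. The mice were CB17-SCID, a strain that lacks most mature T and B lymphocytes, and they bore tumours grown from HT1376, a line of human bladder cancer cells. Both groups received 35 mpk by mouth once a day. They share the strain, the xenograft, the drug, the dose and the schedule, and differ in the labels by the collection time alone. The other 6 libraries came from 3 vehicle samples, whose bleeding time the labels do not give, and 3 samples of treated mice at 6 h. The sources used here do not give the clock hours of dosing and bleeding. If dosing was at a fixed hour, the 24 h collection fell near the hour of a next dose and 1 h earlier in the daily cycle than the 1 h collection. The labels do not say that each library came from a separate mouse, so p-values here measure the spread between these samples.

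RNA was total RNA from whole blood, depleted of ribosomal RNA and read as paired ends of 150 bases. Library totals ran from 6739993 to 8781149 counts at 1 h and from 6496573 to 7653753 counts at 24 h. The B cell genes Ms4a1 and Cd79a had 0 counts in 6 of 6 libraries, and the T cell receptor genes Cd3e and Cd3g reached at most 6 and 7 counts in any of them. Other lymphocyte genes had reads: 12 of 22 genes of the T cell list and 7 of 18 of the B cell list were tested, among them Cd3d with 37 counts in 24 h replicate 3 and at most 11 in the other 5 libraries, and Cr2 with 25 to 93 counts. Ncr1, a receptor of natural killer cells, was at 42.6, 37.0 and 31.6 CPM (a count scaled to a fixed library size) at 1 h and 35.9, 50.4 and 43.4 CPM at 24 h. The library size behind CPM is the total count after scaling by trimmed means (TMM).

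Glucocorticoids are steroid hormones of the adrenal cortex. They enter cells and bind the glucocorticoid receptor, which moves to the nucleus and switches on a set of genes within an hour or so, among them Fkbp5, Per1, Klf9, Tsc22d3, Dusp1 and Nfkbia. In blood cells several of these damp inflammatory signalling, and Fkbp5 feeds back on the receptor itself. Hormone levels follow the daily cycle and rise with handling. Per1 is at the same time a core gene of the circadian clock, in which the activators CLOCK and ARNTL (BMAL1) drive the Per, Cry and Nr1d genes through E-box sequences and are in turn repressed by their products.

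At 24 h, 3 of the 13384 tested genes differed from 1 h at an adjusted p under 0.05 by edgeR's quasi-likelihood test with Benjamini-Hochberg adjustment, 0.0224% of all. The 3 genes fell: Gm49838 and Gm22146, both transcripts inside the Fkbp5 gene, and Irf2bp2, a nuclear co-repressor that binds IRF2. No gene rose. At an unadjusted p under 0.05, 459 genes (3.43% of those tested) were higher at 24 h and 359 (2.68%) were lower. The 3 values at 24 h lay all above the 3 at 1 h in 755 genes (5.64%) and all below them in 635 (4.74%). The median log2 fold change over all tested genes was 0.02, with 6999 positive and 6385 negative. Of the 28 genes with an unadjusted p under 0.001, 22 were lower at 24 h and 6 were higher. DESeq2 called 27 genes, 4 higher and 23 lower, and limma-voom called 5, 0 higher and 5 lower. The count rests on single libraries. It was 205 without 24 h replicate 3, 7 without vehicle replicate 1, 1 without vehicle replicate 2, without 1 h replicate 1 and without 6 h replicate 2, and 0 without 1 h replicate 3, without 24 h replicate 1 and without 24 h replicate 2.

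**Figure D1:**
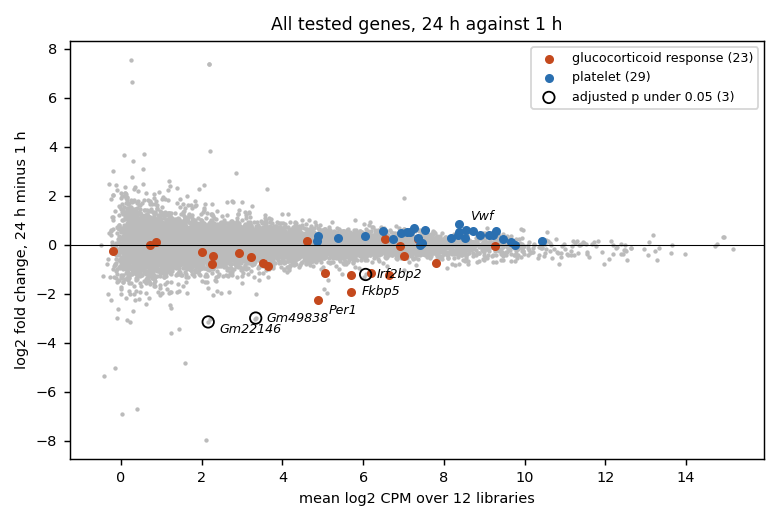
Log2 fold change (24 h minus 1 h, vertical axis) against mean log2 CPM over the 12 libraries (horizontal axis) for the 13384 tested genes, 1 grey point per gene, with the 23 tested glucocorticoid response genes in red, the 29 tested platelet genes in blue and the 3 genes with an adjusted p under 0.05 circled. The circled genes all lie below 0, the lowest red points are Per1 and Fkbp5, and 28 of 29 blue points lie above 0.

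The promoters of 4 genes are shown, each of which was lower in every 24 h library than in every 1 h library. Nfkbia and Dusp1 fell slightly further than Klf9 and Irf2bp2, and their windows are not printed. Each window runs from 250 bases before to 50 bases after a RefSeq transcription start (GRCm38.p6, printed on the gene's strand). Fkbp5 is at chr17:28486100-28486399 (minus strand), Per1 at chr11:69098699-69098998 (plus strand, the first of 2 windows), Klf9 at chr19:23140976-23141275 (plus strand) and Irf2bp2 at chr8:126593937-126594236 (minus strand). Capitals mark matches, on either strand, to the E-box CACGTG, the glucocorticoid response element ACANNNTGT, the D-box TTATGNAA, the ROR element AGGTCA or the cAMP response element TGACGTCA, and no match in these windows overlaps another.
Fkbp5: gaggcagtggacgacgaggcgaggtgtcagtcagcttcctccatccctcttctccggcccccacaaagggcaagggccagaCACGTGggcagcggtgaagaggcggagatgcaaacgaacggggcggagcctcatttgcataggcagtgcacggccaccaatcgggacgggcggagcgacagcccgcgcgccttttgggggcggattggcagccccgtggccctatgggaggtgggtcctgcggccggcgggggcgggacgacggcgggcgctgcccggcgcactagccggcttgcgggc
Per1: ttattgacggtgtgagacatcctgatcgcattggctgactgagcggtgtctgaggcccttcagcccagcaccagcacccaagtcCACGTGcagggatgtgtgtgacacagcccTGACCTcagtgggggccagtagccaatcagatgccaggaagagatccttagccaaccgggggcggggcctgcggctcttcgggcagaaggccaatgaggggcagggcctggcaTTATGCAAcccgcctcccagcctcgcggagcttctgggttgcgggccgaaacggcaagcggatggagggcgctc
Klf9: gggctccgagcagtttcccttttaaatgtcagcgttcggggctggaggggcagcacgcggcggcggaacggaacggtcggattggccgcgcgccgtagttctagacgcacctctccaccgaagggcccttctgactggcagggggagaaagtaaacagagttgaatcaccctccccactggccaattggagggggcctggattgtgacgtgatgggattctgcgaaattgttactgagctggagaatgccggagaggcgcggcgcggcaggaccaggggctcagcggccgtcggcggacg
Irf2bp2: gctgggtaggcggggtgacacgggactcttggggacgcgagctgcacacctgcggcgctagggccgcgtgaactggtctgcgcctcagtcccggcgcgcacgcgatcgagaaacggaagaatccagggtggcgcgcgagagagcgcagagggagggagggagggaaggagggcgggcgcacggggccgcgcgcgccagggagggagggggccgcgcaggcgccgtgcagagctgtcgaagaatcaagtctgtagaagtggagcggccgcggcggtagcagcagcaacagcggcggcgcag
The Fkbp5 window holds an E-box. The Per1 window holds an E-box, a ROR element (as TGACCT, its other strand) and a D-box. The windows of Klf9 and Irf2bp2 hold no match. Among windows not printed, that of Dusp1 holds an E-box and a cAMP response element. Window 2 of Ptpn22 holds a glucocorticoid element. The windows of Nfkbia, window 1 of Ptpn22 and window 2 of Per1 hold no match. Over 32851 RefSeq windows of the same length, 7.15% held the E-box and 6.85% the glucocorticoid element. The D-box was in 3.38%, the ROR element in 16.3% and the cAMP response element in 1.79%. Among 35 windows of the glucocorticoid response genes, 7 held the E-box and 4 the glucocorticoid element, the latter in Map3k6, Mt1 and Sgk1. These are matches of letters near the start, and the absence of one says only that those letters are not in this window.

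Fkbp5 encodes a co-chaperone of HSP90 that lowers the hormone affinity of the glucocorticoid receptor. It was at 127, 115 and 128 CPM at 1 h and at 33.3, 34.7 and 29.4 CPM at 24 h. The 24 h values lay close together and far below the 1 h values, and the groups did not overlap. The log2 fold change was -1.92 (SE 0.32), with an adjusted p of 0.0619 by edgeR's quasi-likelihood test, so Fkbp5 itself missed the threshold. Its vehicle libraries were at 12.4, 22.8 and 37.9 CPM and its 6 h libraries at 18.1, 28.7 and 36.4 CPM, a range that takes in the 24 h values and lies far below the 1 h values.

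The 2 called transcripts of this locus lie within Fkbp5 on chromosome 17 (GENCODE M21, GRCm38). Gm49838 is annotated as a sense intronic transcript on the minus strand, that of Fkbp5, from 28424723 to 28426430. It was at 26.4, 25.9 and 37.6 CPM at 1 h and at 3.61, 2.49 and 5.31 CPM at 24 h. The lowest 1 h library stood well above the highest 24 h library. Its log2 fold change was -2.995 (SE 0.36, adjusted p = 0.0108 by edgeR). Gm22146, as the count table names ENSMUSG00000117084, is annotated as antisense on the plus strand from 28446500 to 28456457. It was at 11.0, 9.70 and 16.2 CPM at 1 h and at 1.05, 1.52 and 1.56 CPM at 24 h, a log2 fold change of -3.15 (SE 0.46, adjusted p = 0.0411 by edgeR). A further transcript inside the gene, Gm49839, had 23.7, 16.5 and 41.5 CPM at 1 h and 3.84, 3.03 and 3.12 CPM at 24 h, with an adjusted p of 0.0619. The sources used here do not say whether counting used strand, so reads of these transcripts and of unspliced Fkbp5 RNA cannot be told apart. The same layout was seen at Il1r2 and Ptpn22. Of the 28 genes with an unadjusted p under 0.001, 7 had predicted or clone names, and all 7 were lower at 24 h. Among the 7 were Gm49838, Gm22146 and Gm49839 of the Fkbp5 locus. C230038L03Rik lay inside no protein-coding gene. Gm37255, inside Mindy3, had a log2 fold change of -1.115 beside -0.381 for Mindy3. Gm37347, inside Il1r2, had a log2 fold change of -1.82 beside -1.14 for Il1r2, and Gm43065, inside Ptpn22, had -1.57 beside -1.01 for Ptpn22. None of Gm37347, Il1r2, Gm43065 and Ptpn22 passed the threshold.

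Irf2bp2 (chromosome 8, 126588296 to 126593986, minus strand) was at 107, 109 and 136 CPM at 1 h and at 57.2, 53.2 and 41.4 CPM at 24 h. The 24 h values lay below every 1 h value and close to the vehicle values of 55.4, 54.5 and 65.9 CPM. The log2 fold change was -1.21 (SE 0.18, adjusted p = 0.0411 by edgeR). Irf2bp2 was called in 11 of 22 alternative settings. Its adjusted p was 0.551 with library totals alone and 0.289 with only the 24 h and 1 h libraries, and over all settings it ran from 1.33e-06 to 0.551 with the log2 fold change between -1.36 and -1.09. Gm22146 was called in 13 of the 22 and Gm49838 in 19, the exceptions for Gm49838 being the fits without 1 h replicate 3, 24 h replicate 1 or 24 h replicate 2. An antisense gene, Gm26759, shares exon bases with Irf2bp2 and had 0 counts in all 12 libraries. Ptpn22, a tyrosine phosphatase that restrains antigen receptor signalling, was at 57.3, 40.3 and 48.0 CPM at 1 h and at 24.3, 23.2 and 24.9 CPM at 24 h. These groups did not overlap, and the log2 fold change of -1.01 (SE 0.19) had an adjusted p of 0.200 by edgeR.

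**Figure D2:**
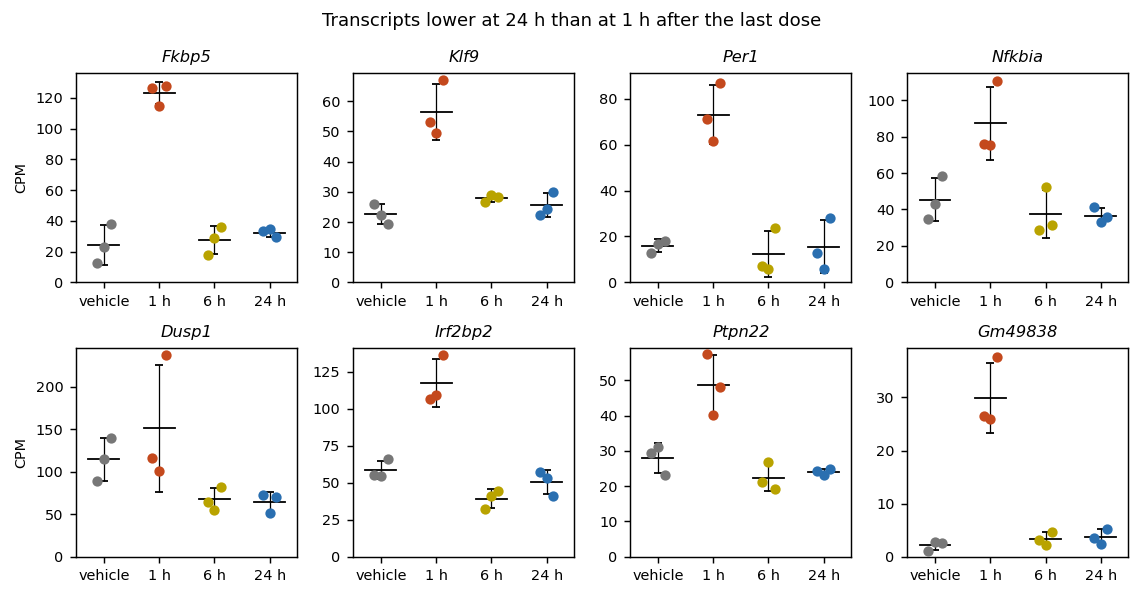
CPM (vertical axis, from 0) of 8 transcripts in each of the 12 libraries by group (horizontal axis), with the mean as a bar and the SD over 3 libraries as whiskers. The 3 libraries at 24 h lie below the 3 at 1 h in every panel, and Irf2bp2 and Gm49838 are the panels with an adjusted p under 0.05.

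The glucocorticoid response list holds 26 genes, of which 23 were tested. It was chosen with earlier results of these data known. None of the 23 passed the threshold, and 9 were lower and 0 higher at an unadjusted p under 0.05. Over all tested genes, 2.68% were lower and 3.43% higher at that p. In the list, 10 members had all 24 h values below all 1 h values against 1 with all above. The shares over all tested genes were 4.74% all below and 5.64% all above. The list's median log2 fold change was -0.46, with 19 members negative and 4 positive, beside 0.02 over all tested genes. The median of the same members was 0.56 for 1 h minus vehicle and -0.08 for 24 h minus vehicle, comparisons that share libraries with the one described here. The mean log2 CPM over the list was 4.69, 4.83 and 5.13 in the 1 h libraries and 4.42, 4.19 and 4.20 in the 24 h libraries. The 24 h libraries lay below the 1 h libraries without overlap.

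Klf9, a Krüppel-like transcription repressor that is a direct receptor target, was at 53.2, 49.4 and 66.9 CPM at 1 h and at 22.2, 24.4 and 30.0 CPM at 24 h. The groups did not overlap. The log2 fold change was -1.15 (SE 0.18) with an adjusted p of 0.0619 by edgeR. Per1 was at 70.9, 61.5 and 86.8 CPM at 1 h and at 12.8, 5.96 and 28.1 CPM at 24 h. Replicate 3 held the highest Per1 value at 24 h and still lay below each 1 h library. Its log2 fold change of -2.24 had an SE of 0.51 and an adjusted p of 0.392. Nfkbia, the inhibitor that holds NF-kappaB in the cytoplasm, was at 76.0, 75.3 and 110 CPM at 1 h and at 41.1, 32.9 and 35.9 CPM at 24 h, a log2 fold change of -1.25 (SE 0.25, adjusted p = 0.324 by edgeR). Dusp1, a phosphatase that inactivates MAP kinases, was at 116, 101 and 237 CPM at 1 h and at 73.0, 51.5 and 70.5 CPM at 24 h. Here 1 h replicate 3 stood far above the other two, and the log2 fold change of -1.22 (SE 0.29) had an adjusted p of 0.438.

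Lower values without overlap were also seen for Tsc22d3 (GILZ, an anti-inflammatory leucine zipper protein), at 326, 282 and 358 CPM at 1 h and 210, 172 and 197 CPM at 24 h. Ddit4, an inhibitor of mTORC1, had 21.5, 16.1 and 22.6 CPM at 1 h and 12.3, 10.6 and 10.3 CPM at 24 h. Il1r2, the decoy receptor of interleukin-1, had 91.8, 132 and 133 CPM at 1 h and 47.5, 59.6 and 54.9 CPM at 24 h. The adjusted p of these 3 genes was 0.515, 0.524 and 0.693 by edgeR. Sgk1, a kinase that is another receptor target, went the other way without passing the test, with 78.6, 84.1 and 75.1 CPM at 1 h and 92.7, 101 and 89.4 CPM at 24 h (log2 fold change 0.25, 95% interval -0.05 to 0.56). Calls for members of the list differed by setting. limma-voom called Fkbp5 and Klf9 lower, the DESeq2 test Dusp1, Fkbp5, Klf9 and Nfkbia, and limma-voom with quality weights these 4 with Per1 and Tsc22d3. Fkbp5, Klf9, Nfkbia and Per1 were called lower when 24 h replicate 3 was left out, and Fkbp5 was also called when only the 24 h and 1 h libraries were fitted. Among the members named here, the fit without a filter called Fkbp5, Klf9, Nfkbia, Per1, Dusp1 and Il1r2 lower. Klf9 was called with a minimum of 5 CPM in 3 libraries, Fkbp5 and Klf9 without vehicle replicate 1 and Fkbp5 without vehicle replicate 3.

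Of the core clock list of 19 genes, 14 were tested and none passed the threshold. At an unadjusted p under 0.05, 2 were lower, beside 2.68% of all tested genes: Per1 and Nfil3, the repressor of D-box genes. Nfil3 was at 39.9, 49.3 and 52.7 CPM at 1 h and at 32.1, 33.5 and 33.1 CPM at 24 h (log2 fold change -0.52, adjusted p = 0.726 by edgeR). The list's median log2 fold change was -0.43, with 11 members negative and 3 positive. The activators lay close to 0. Clock had 48.9, 52.1 and 45.2 CPM at 1 h and 47.0, 54.5 and 56.7 CPM at 24 h, a log2 fold change of 0.11 (95% interval -0.28 to 0.51). Arntl had 9.12, 9.35 and 10.1 CPM at 1 h and 10.5, 10.1 and 5.47 CPM at 24 h, a log2 fold change of -0.13 (95% interval -0.74 to 0.49). The Per1 value of -2.24 had a 95% interval of -3.343 to -1.145. These genes were not tested against each other, and a shift of the clock was not tested. Among the repressors, the log2 fold change was -0.47 in Per2 (95% interval -1.01 to 0.07), -0.49 in Per3 (-1.96 to 0.97), -0.40 in Cry1 (-1.13 to 0.33), 0.01 in Cry2 (-1.14 to 1.16), 0.35 in Nr1d1 (-1.05 to 1.75) and -0.45 in Nr1d2 (-0.98 to 0.08). Per3, Cry2 and Nr1d1 had under 4 CPM in every 1 h and 24 h library, and their intervals are wide. Rora, an activator acting at ROR elements, was at -0.49 (-1.01 to 0.02), Bhlhe40 at -0.17 (-0.69 to 0.36) and the D-box activator Hlf at -0.08 (-2.19 to 2.04). Tef, another D-box activator, was at -0.95 (-2.03 to 0.13), and that value rested on 1 h replicate 1, at 33.9 CPM beside 7.64 and 8.29 CPM in the other 1 h libraries. Without that library it was 0.09.

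Lists of genes that answer other acute stimuli had medians nearer to 0, and none of their members passed the threshold. The immediate early list had 21 tested members, 1 higher and 1 lower at an unadjusted p under 0.05, and a median log2 fold change of -0.07. The lower one was Dusp1, which is on both lists, and the higher one was Atf3, a stress-induced transcription factor, at 6.67, 5.93 and 6.57 CPM at 1 h and 10.8, 8.67 and 8.75 CPM at 24 h. Heat shock chaperones had a median of -0.13 over 19 members, with Stip1 and Hsp90b1 lower at an unadjusted p under 0.05. The shares over all tested genes at that p were 3.43% higher and 2.68% lower. Interferon-stimulated genes had a median of 0.01 over 42 members, with 1 higher (Ifi27l2a, log2 fold change 0.40) and 0 lower. The medians of the integrated stress response (16 members), p53 targets (17), lipid synthesis (20) and fatty acid oxidation (14) lists were -0.07, -0.04, -0.01 and 0.13, with at most 1 member at an unadjusted p under 0.05 in either direction.

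**Figure D3:**
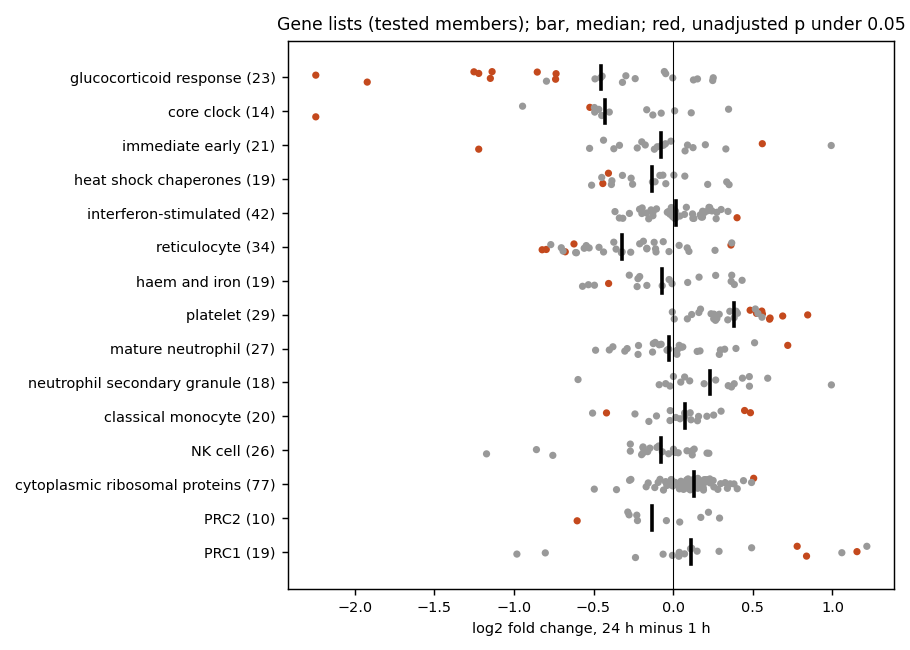
Log2 fold change (24 h minus 1 h, horizontal axis) of each tested member of 15 gene lists (rows, with the number tested), the median as a bar and members with an unadjusted p under 0.05 in red. Red points gather to the left for glucocorticoid response genes and to the right for platelet genes.

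Platelets carry RNA made by megakaryocytes, and in bulk blood fewer or more cells of a type and less or more RNA per cell cannot be told apart. Of 29 tested members, 8 were higher and 0 lower at an unadjusted p under 0.05. Over all tested genes, 3.43% were higher and 2.68% lower. The log2 fold change was positive in 28 members. All 24 h values lay above all 1 h values in 9 members, against 5.64% of all tested genes. None of the 29 passed the threshold. The mean log2 CPM over the list was 7.33, 7.65 and 7.61 at 1 h and 7.35, 7.78 and 8.35 at 24 h. These list levels overlapped, and replicates 1, 2 and 3 at 24 h stood in the same order as for reticulocyte genes. The part of that order in the platelet values was not tested. Vwf, the adhesive protein of platelet and endothelial granules, was at 215, 289 and 270 CPM at 1 h and at 561, 407 and 422 CPM at 24 h. The groups did not overlap, and the log2 fold change of 0.84 (SE 0.20) had an adjusted p of 0.405 by edgeR. Itgb3, a chain of the fibrinogen receptor, was at 308, 301 and 340 CPM at 1 h and at 449, 460 and 538 CPM at 24 h. Mrvi1, Alox12 and Thbs1 had log2 fold changes of 0.61, 0.56 and 0.56. The chemokine genes Pf4 and Ppbp, among the most abundant platelet transcripts, had 24 h values that overlapped those at 1 h: Ppbp was at 339, 495 and 414 CPM at 1 h and at 163, 598 and 891 CPM at 24 h. Without 24 h replicate 3 the list's median was 0.12 in place of 0.38, and Pf4 and Ppbp stood at -0.19 and -0.13.

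Reticulocytes, the youngest red cells in blood, still hold RNA for haemoglobin and the membrane skeleton. Of 34 tested reticulocyte genes, 28 had a negative log2 fold change, the median was -0.32 and none passed the threshold. At an unadjusted p under 0.05, 4 were lower and 1 higher, beside 2.68% lower and 3.43% higher of all tested genes. The anion exchanger Slc4a1 was at 3932, 4674 and 4253 CPM at 1 h and at 1400, 1887 and 4115 CPM at 24 h. Replicates 1 and 2 at 24 h lay far below the 1 h libraries, and replicate 3 lay among them. Spectrin beta, Sptb, showed the same order, at 350, 355 and 372 CPM at 1 h and 128, 166 and 317 CPM at 24 h. The vehicle libraries lay near 24 h replicates 1 and 2. They were at 1432, 1645 and 2013 CPM for Slc4a1 and at 160, 143.5 and 217 CPM for Sptb. The log2 fold changes of Slc4a1, Sptb and Trim58 were -0.80, -0.82 and -0.62, and that of Tal1, an erythroid transcription factor, was 0.36. The mean log2 CPM over the list was 8.20, 8.27 and 8.11 at 1 h and 7.04, 7.53 and 8.62 at 24 h. In vehicle it was 7.43, 7.545 and 7.79. Haem and iron genes had the same order at 24 h, with list means of 6.14, 6.45 and 7.17, and a median log2 fold change of -0.07 over 19 members. The 4 adult globin genes did not share that order, with list means of 7.93, 7.75 and 8.22 at 24 h. At 1 h these were 7.75, 8.41 and 7.95, so the groups overlapped. The globin median log2 fold change was -0.27, with 3 negative and Hba-a1 positive at 0.64.

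**Figure D4:**
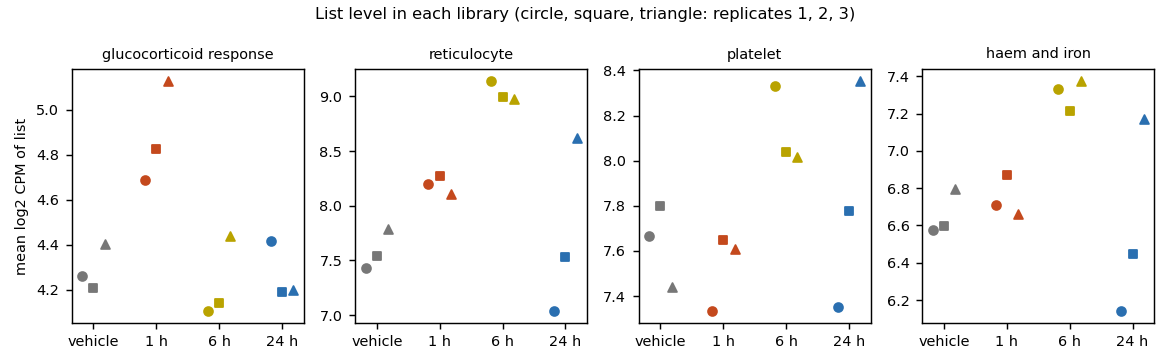
Mean log2 CPM over the members of 4 lists (vertical axis, a separate scale in each panel) in each library by group (horizontal axis), with circle, square and triangle for replicates 1, 2 and 3. The 24 h libraries spread from 7.04 to 8.62 for reticulocyte genes, beside 8.11 to 8.27 at 1 h, and from 4.19 to 4.42 for glucocorticoid response genes, below the 3 libraries at 1 h.

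The 24 h libraries differed more among themselves than the others did. The median SD of log2 CPM over tested genes was 0.402 at 24 h, 0.254 at 1 h, 0.288 at 6 h and 0.269 in vehicle, and the SD was larger at 24 h than at 1 h in 9140 genes (68.3%). The reticulocyte list had a median SD of 0.816 at 24 h and 0.157 at 1 h. Replicate 1 or replicate 3 was the library farthest from the other two in 40.2% of genes each, and replicate 2 in 19.7%. This rule names 1 of the 3 libraries for every gene, outlying or not, and the shares in other groups were not computed. The TMM factors of the 24 h libraries were 1.32, 1.21 and 0.856, and those of the 1 h libraries 1.09, 1.00 and 1.09. Without 24 h replicate 3, the fit called 195 genes lower and 10 higher, 1.46% of 14089 tested. The 195 were picked by a fit that left replicate 3 out, which favours genes where that library stood high. Its place in them is therefore no separate evidence about it. In 191 of the 195, replicate 3 lay above both other 24 h libraries, and in 176 it lay at or above the lowest 1 h library. Of the reticulocyte list, 15 members were among them, with Slc4a1, Sptb and Trim58, and so was E2f2, an E2F transcription factor of the cell cycle, at 276, 331 and 352 CPM at 1 h and 89.8, 137 and 327 CPM at 24 h. With the reticulocyte level as a covariate, 3 genes were called, 1 higher and 2 lower. The lower ones were Gm49838 and Irf2bp2, Gm22146 was no longer called (adjusted p = 0.085 by edgeR), and the higher one was the platelet gene Thbs1 (log2 fold change 0.75, adjusted p = 0.0475). The part of red cell content in the other results was not tested further.

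The genes with the largest SD at 24 h among well expressed genes were mt-Co2, Prg4, Apol11b, Zfp874a, Bicd1 and Depdc1a. The mitochondrial transcript mt-Co2 was listed at 0, 0 and 70.8 CPM at 24 h and at 20.6, 51.6 and 97.8 CPM at 1 h. Its counts were 0, 0 and 453 at 24 h and 151, 452 and 908 at 1 h. These lie near whole multiples of 151, and the reason was not tested. The transcript mt-Atp6 of the same genome was at 193, 199 and 144 CPM at 24 h and at 210, 247 and 567 CPM at 1 h. Prg4, which encodes the joint lubricant lubricin, ranged from 1.09 to 30.2 CPM at 24 h and from 3.65 to 151 CPM at 1 h. Apol11b ranged from 204 to 2303 CPM at 24 h and from 234 to 1078 CPM at 1 h. Bicd1, Zfp874a and Depdc1a were tight at 1 h and lowest in replicate 1 at 24 h, as for Depdc1a with 18.9, 20.99 and 18.3 CPM at 1 h and 4.08, 22.4 and 30.2 CPM at 24 h. None of these 6 passed the threshold, with adjusted p from 0.814 to 1.00 by edgeR, and mt-Co2, Prg4 and Bicd1 did pass it in the fit without a filter, as mt-Co2 did without 24 h replicate 3.

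None of the tested genes on the white blood cell lists passed the threshold. Classical monocyte genes had a median log2 fold change of 0.07 over 20 members. Ccr2, the receptor that brings monocytes out of the marrow, was at 480, 541 and 540 CPM at 1 h and at 625, 817 and 688 CPM at 24 h, without overlap (log2 fold change 0.45, adjusted p = 0.708 by edgeR). Mgst1 was at 0.49 and the chemokine Ccl9 at -0.42. Mature neutrophil genes had a median of -0.03 over 27 members and secondary granule genes 0.23 over 18, with 14 positive and 4 negative. Natural killer cell genes had a median of -0.08 over 26 members, with 0 at an unadjusted p under 0.05 in either direction. The list of basophil, mast cell and eosinophil genes had 10 tested members. At an unadjusted p under 0.05, 3 of them were higher, beside 3.43% of all tested genes: Ccr3, Kit and Fcer1a. Fcer1a was at 0.35, 0.43 and 2.66 CPM at 24 h and at 0.41, 0.23 and 0 CPM at 1 h, so that replicate 3 alone stood clear of the 1 h values. Kit, at 6.52, 13.9 and 20.2 CPM at 24 h, overlapped the 1 h values of 6.13, 8.44 and 6.35 CPM. The median of this list was 0.43, and it was -0.0093 without 24 h replicate 3. Ribosomal protein genes were positive in 60 of 77 with a median of 0.13, which was -0.17 without 24 h replicate 3, and Rpsa had 167, 184 and 158 CPM at 1 h and 226, 224 and 272 CPM at 24 h. Cell cycle genes had a median of -0.05 over 44 members, 1 higher (Mcm2) and 1 lower (E2f2).

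The smallest p-values among genes that were higher at 24 h belonged to Hrh2, Cad, Rnf40, Nup88 and Vwf, and none passed. Hrh2, the histamine H2 receptor, was at 38.4, 44.4 and 45.2 CPM at 1 h and at 89.1, 76.6 and 67.8 CPM at 24 h, without overlap and with a log2 fold change of 0.87 (SE 0.16, adjusted p = 0.184 by edgeR). Its vehicle libraries, at 77.3, 79.8 and 95.9 CPM, lay near those at 24 h. Cad, the enzyme that opens pyrimidine synthesis, was at 2.59, 3.54 and 3.12 CPM at 1 h and at 14.6, 9.75 and 7.66 CPM at 24 h, a log2 fold change of 1.78 (adjusted p = 0.324). Rnf40, a ubiquitin ligase for histone H2B, and Nup88, a nuclear pore protein, had log2 fold changes of 0.94 and 0.91.

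No gene of the drug's target complex, PRC2, passed the threshold between the times. Ezh2 was at 220, 225 and 194 CPM at 1 h and at 86.5, 180 and 391 CPM at 24 h. The 24 h libraries ran on both sides of the 1 h libraries in the order of their reticulocyte level, whose part in Ezh2 was not tested, and the log2 fold change was 0.04 (95% interval -0.72 to 0.80). Ezh1, the paralog, had a log2 fold change of 0.22 (-0.20 to 0.64), and the subunits Eed and Suz12 had -0.28 (-0.72 to 0.16) and -0.29 (-0.82 to 0.25). Of 10 tested PRC2 genes only the accessory subunit Aebp2 was at an unadjusted p under 0.05, with 30.5, 26.5 and 27.6 CPM at 1 h and 17.6, 20.04 and 17.97 CPM at 24 h (log2 fold change -0.60, adjusted p = 0.693 by edgeR). Of 19 PRC1 genes, 3 were higher at an unadjusted p under 0.05: Phc1 (1.15), Cbx7 (0.84) and Pcgf5 (0.78). Over all tested genes, 3.43% were higher and 2.68% lower at that level. Pcgf5 was at 29.3, 17.9 and 49.5 CPM at 24 h and at 18.2, 18.5 and 19.4 CPM at 1 h, so the groups overlapped, and its log2 fold change was 0.33 without 24 h replicate 3 and 0.15 with quality weights. A list of demethylase and trithorax genes had 17 tested members, among them Epc1 and Epc2, which belong to neither class. Epc1 (0.67) and Wdr5 (0.69) were higher and Epc2 (-0.31) was lower at that level.

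A list of 7 genes, which an earlier fit of these same data found above vehicle at 1, 6 and 24 h, gives no independent evidence of that rise. Between 24 h and 1 h none of the 7 passed the threshold. Runx1t1, a transcription co-repressor, was at 41.5, 41.6 and 49.97 CPM at 1 h and at 28.2, 51.0 and 54.5 CPM at 24 h, beside 8.25, 9.35 and 6.74 CPM in vehicle. The groups overlapped, and the log2 fold change was 0.00 (95% interval -0.48 to 0.49). Mapre3, a microtubule end-binding protein, was at -0.11 (-0.74 to 0.53), Scd1, the stearoyl-CoA desaturase, at -0.20 (-0.68 to 0.29), Slc4a5, a bicarbonate transporter, at -0.35 (-1.29 to 0.60), Car8 at 0.23 (-0.56 to 1.02) and Hsd3b6 at -0.02 (-1.06 to 1.02). Rragd, a GTPase that signals amino acid supply to mTORC1, was the one member without overlap, at 30.9, 24.5 and 23.0 CPM at 1 h and 9.20, 16.4 and 15.9 CPM at 24 h (log2 fold change -0.92, adjusted p = 0.529 by edgeR). Its vehicle libraries were at 2.56, 5.05 and 4.71 CPM. A p that misses the threshold does not show that the 2 times were alike, and the intervals for Slc4a5, Car8 and Hsd3b6 reach past 1 log2 unit.

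**Figure D5:**
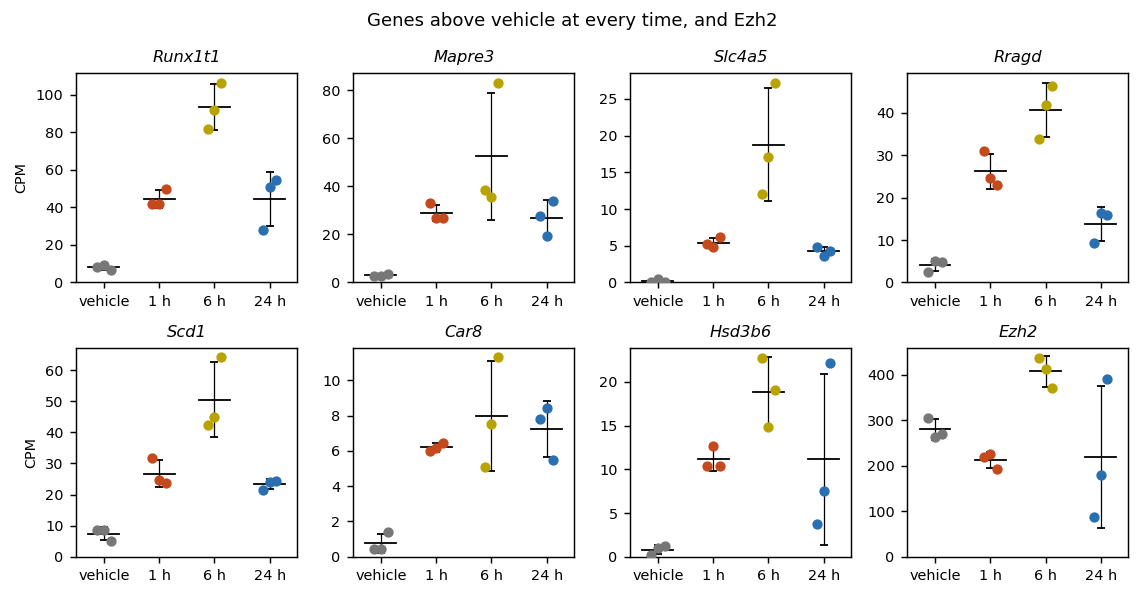
CPM (vertical axis, from 0) of the 7 genes found above vehicle at every time in an earlier fit, and of Ezh2, in each of the 12 libraries by group (horizontal axis), with the mean as a bar and the SD over 3 libraries as whiskers. The 24 h and 1 h libraries overlap for 7 of the 8 genes, and Rragd lies lower at 24 h.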

How the data were processed

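The authors deposited whole-number read counts per gene for 12 libraries in 1 table, which per the file headers gives 55367 Ensembl mouse gene identifiers. The submitters' processing notes name RSEM and the build hg38. The sources used here do not give the aligner, the annotation, the use of strand or any rounding. Counts were used as deposited, and 55111 identifiers matched GENCODE M21, the source of the positions. Genes were filtered by expression (filterByExpr), scaled by TMM and fitted with edgeR 4.0.16 (R 4.3.3) over 4 group means of 3 libraries, with 8 residual degrees of freedom, and p-values were adjusted over 13384 tested genes by the Benjamini-Hochberg method at 0.05. Alternatives used limma 3.58.1 and DESeq2 1.42.0, and each test was tested on simulated data. The simulation gave all groups the same spread per gene, so it does not cover the larger spread at 24 h. CPM values are scaled by TMM, and log2 CPM used a prior count of 2. Intervals are at 95%.

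The gene lists, the comparison and the motifs were chosen with earlier results of these data known, and no set test was run. Named genes were, in each direction, the called genes without predicted names, filled to 5 by the smallest p where fewer, with groups that did not overlap, up to 4 members with the smallest p of each list, fixed PRC2, clock and response genes, and the 6 genes with the largest SD at 24 h. The text prints some of these. Tsc22d3, Ddit4, Il1r2, Mindy3, Sgk1, Thbs1, Pf4, Ppbp, Tal1, Ncr1, the lymphocyte genes and the predicted genes other than the called pair were named after their values were seen. Same-numbered libraries are not said to share a mouse or day.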

Additional observations from a re-analysis of the deposited data

How the results depend on the processing

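The count of 3 genes differing between 24 h and 1 h, all lower, was 3 with DESeq2 size factors, 2 with library totals alone and 4 with a minimum of 5 CPM in 3 libraries. It was 107 without a filter (46 higher and 61 lower, 15 of them not tested in the filtered fit), 27 with the DESeq2 test, 5 with limma-voom and 52 with limma-voom and quality weights, and the 3 genes were among the calls in each of these 4 settings. With replicate number in the design (replicate block) the count was 1, Gm49838, and Irf2bp2 and Gm22146 each had an adjusted p of 0.0645 by edgeR. The correlation of deviations from the group means between 1 h and 24 h was 0.05, -0.01 and -0.11 for numbers 1, 2 and 3. Libraries of unlike number reached similar sizes, such as -0.159 for 1 h replicate 2 with 24 h replicate 1. With 3 libraries per group these values cannot decide whether the numbers mark pairs. Leaving out 1 library at a time gave from 0 to 205 genes. Depth limits genes of a few CPM, such as Per3, Cry2 and Hlf. The cause of these shifts was not tested. Log2 fold changes near 0 turned sign. With DESeq2 size factors they were -0.011 in Cry2 and -0.0148 in Runx1t1, and with the DESeq2 test -0.0122 and -0.0149. With library totals alone they were 0.016 in Arntl, 0.11 in Hlf and -0.019 in Ezh2. With limma-voom they were -0.10 in Cry2, -0.22 in Ezh2, -0.059 in Runx1t1 and -0.034 in Apol11b. With quality weights they were 0.00055 in Arntl, -0.012 in Cry2, -0.21 in Ezh2, -0.011 in Ezh1, -0.19 in Apol11b and 0.023 in Depdc1a. With only the 24 h and 1 h libraries, Runx1t1 was at -0.000269. With the replicate block they were -0.041 in Cry2, -0.058 in Ezh2, -0.0257 in Runx1t1 and -0.20 in Apol11b. With the reticulocyte level as a covariate they were -0.80 in Cry2, 0.39 in Hsd3b6 and 0.34 in Depdc1a. Leaving out 1 library turned the sign in some genes, with ranges of -0.30 to 0.11 in Arntl, -1.29 to 0.0899 in Tef, -0.56 to 0.41 in Cry2, -0.0747 to 0.79 in Nr1d1, -0.37 to 0.0525 in Bhlhe40, -2.37 to 0.43 in Hlf, -0.19 to 0.49 in Pf4, -0.13 to 0.82 in Ppbp, -0.68 to 0.41 in Ezh2, -0.16 to 0.23 in Runx1t1, -0.30 to 0.0703 in Mapre3, -0.98 to 0.38 in Hsd3b6, -3.07 to 0.56 in Prg4, -1.13 to 0.81 in Apol11b, -0.91 to 0.0354 in Zfp874a and -0.54 to 0.42 in Depdc1a. The list medians ran from -0.86 to -0.31 for glucocorticoid response, from -0.60 to -0.13 for core clock, from -0.93 to -0.03 for reticulocyte and from 0.12 to 0.56 for platelet genes over these settings. Without 24 h replicate 3 the median turned sign in 8 of 32 lists, among them the ribosomal protein, immediate early, lipid synthesis and p53 target lists.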
